A study of Saccharomyces cerevisiae with 24 samples.

Results

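The transcriptional effect of a brief ultraviolet laser exposure on budding yeast was followed here from 30 to 60 min after transfer to fresh growth medium, gene by gene, to show which effects faded and which persisted. For each gene the laser effect is the log2(RPKM + 1) of laser-irradiated cells minus that of control cells, where RPKM is the read number scaled to gene length and library size. The change of the effect is the effect at 60 min (T60) minus the effect at 30 min (T30), so a negative change is seen when a raised gene came back towards control, and also when a gene became lower than control only at T60. The comparison used 12 of the 24 libraries of the study, those of 3 replicate cultures in control and laser-irradiated cells at both times, and 6031 of the 6427 genes in the deposited tables passed a minimum of 1 RPKM in at least 3 of the 12 libraries.

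All 12 libraries came from the haploid laboratory strain BY4741, which is of mating type a and lacks functional HIS3, LEU2, MET15 (MET17) and URA3. Cells grown in rich glucose medium (YEPD) were washed and suspended in buffered saline on ice, and each culture was split into a portion kept on ice (Control_Time30, Control_Time60) and a portion irradiated for 30 s (Laser_Time30, Laser_Time60), before both went into prewarmed YEPD at 30 °C. The irradiated portion was also moved to small tubes on a chilled block and pooled again, so the light and that handling cannot be told apart. Both treatments therefore shared a cold pause, a return to rich medium and renewed growth, and control cells were themselves changing between T30 and T60. The recovered depth was 3105500 to 5343000 reads a library. LEU2 and URA3 held no reads in any of the 12 libraries, and the receptor gene STE2, specific to mating type a, was at 357 RPKM or above. HIS3 was read at 109.5 to 136.1 RPKM and MET17 at 82.6 to 338 RPKM in all 12 libraries. The stated genotype lacks functional copies of both. RPKM is a share of each library, so fewer copies per cell and fewer cells carrying an RNA cannot be told apart.

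Yeast answer many kinds of sudden stress with a general program in which the paralogous activators Msn2 and Msn4 enter the nucleus and bind the stress response element AGGGG upstream of genes for trehalose and glycogen metabolism, chaperones and antioxidant enzymes. That program is known to be transient, ending as cells adapt and resume growth. Other branches are driven by other regulators. Aft1 and Aft2 raise iron uptake genes through the element TGCACCC, Rpn4 raises proteasome genes through GGTGGCAAA, Cbf1 with Met4 acts on sulfur amino acid genes through TCACGTG, and the Mec1, Rad53 and Dun1 kinases act on ribonucleotide reductase genes by removing the repressor Crt1.

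The upstream sequences of genes that carry the contrast between faded and persisting effects are shown first, as 30-base stretches of the strand that carries the gene, written 5′ to 3′, from the yeast reference genome R64 (RefSeq). Capitals mark the element on either strand at its match nearest to the start codon, and an element on the opposite strand reads as its reverse complement. The first 4 genes, shown for AGGGG, were called higher at T30 and no longer at T60, where HXK1 was called lower. The next 3 kept a large effect and are shown for TGCACCC, and the next pair encodes proteasome subunits and is shown for GGTGGCAAA. The last 3 are sulfur genes that moved in the other direction and are shown for TCACGTG.
HXK1, chrVI:255370-255399, minus strand: gcatttttttttaAGGGGttgatgaaaaga
TSL1, chrXIII:70446-70475, plus strand: gggggtagaaccaAGGGGctagcacactca
GLK1, chrIII:50658-50687, plus strand: cctttcagggggcCCCCTatcttgggcgtg
STF2, chrVII:508537-508566, minus strand: ctccttcgaaaacAGGGGgctgcgagcgca
LSO1, chrX:448886-448915, minus strand: aatcgagaatgtTGCACCCttttttccaat
FIT2, chrXV:1059388-1059417, plus strand: acgaatctaactGGGTGCAgtataattagc
SIT1, chrV:27457-27486, plus strand: gaacacatttgaGGGTGCAatctggttcgt
PRE8, chrXIII:86841-86870, minus strand: tagcttattaaGGTGGCAAAattgtccccg
PUP3, chrV:349511-349540, minus strand: atggcactgccGGTGGCAAAaaagtgcaaa
MET6, chrV:342638-342667, minus strand: tatttCACGTGActtacaaacagagtcgta
SAM2, chrIV:1454770-1454799, minus strand: aatatttctaccCACGTGActataattgag
MET32, chrIV:964926-964955, minus strand: tggactaacatgCACGTGAcattttgtgat

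Across all genes the laser effect shrank from T30 to T60. At T30, 678 genes were called higher (11.2% of those tested) and 91 lower (1.51%) in laser-irradiated cells, a call being a Benjamini-Hochberg adjusted p under 0.05 in limma with a log2 difference of at least 1. At T60, 96 were called higher (1.59%) and 29 lower (0.481%). The change of the effect itself was called negative for 249 genes (4.13%) and positive for 67 (1.11%). All 249 negative changes had the same sign in each of the 3 cultures, as did 66 of the 67 positive ones. The genes were selected by tests on these same cultures, so this agreement follows largely from the selection. These tests carried a term for the culture, since each culture was split between the treatments. Without that term 53 negative and 9 positive changes were called, all of them among the genes called with it. The 3 tests share libraries, so their counts are not independent of each other.

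Among the 678 genes called higher at T30, the median share of the RPKM difference still present at T60 was 23.8%, with quartiles of 12% and 33.7%, and 625 stayed on the same side of the control. Among the 91 called lower, the median share was 20.6%, but the quartiles ran from -27.5% to 53.4% and 40 genes lay on the other side of the control at T60. Rescaling the libraries by their median ratio moved the median effect of all genes at T30 from 0.15 to -0.03 and changed the balance of calls: at T60 the share of calls that were higher fell from 76.8% to 62.0%.

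**Figure D1:**
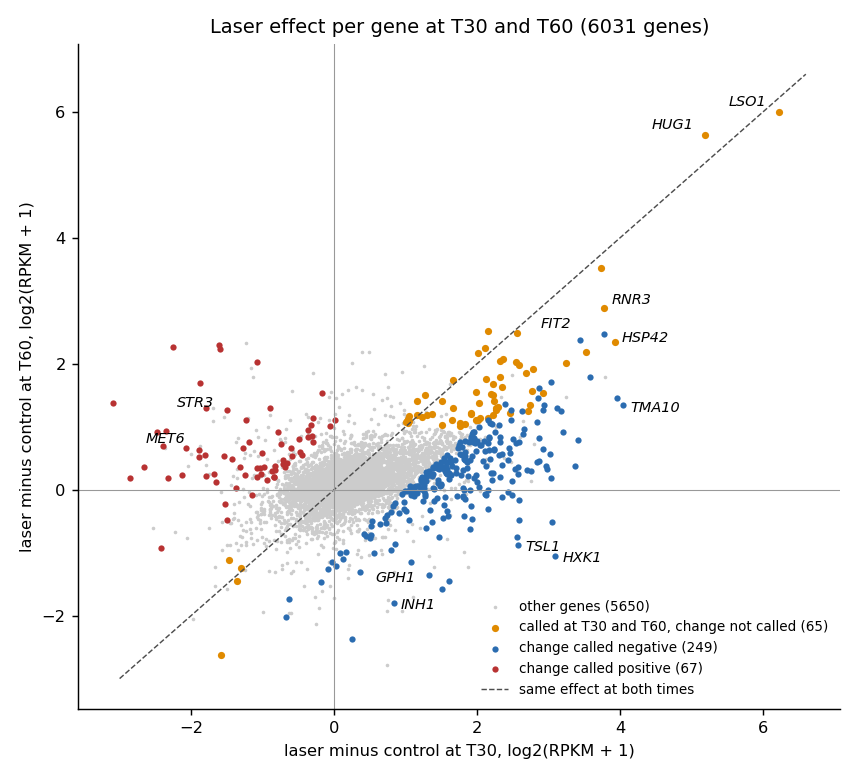
Laser effect of each of the 6031 tested genes at T30 (horizontal) and T60 (vertical), both in log2(RPKM + 1), with the dashed line marking an equal effect at both times. The 249 genes with a negative change lie below the line and the 67 with a positive change above it, while LSO1 and HUG1 lie near the line at the far right.

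Called effects sorted into a few patterns, given here as descriptions because they combine tests on the same libraries. The commonest pattern with a called change was a raised effect that faded: 191 genes were higher at T30 with a negative change and no call at T60, and their median effect went from 1.81 to 0.27. In 147 of the 191 the laser-irradiated cells themselves fell from T30 to T60, a call made for 5.87% of all genes, while control cells rose in 6 and fell in 5, calls made for 0.862% and 0.73% of all genes. Another 20 genes shrank but were still called higher at T60, with medians of 2.89 and 1.32. Genes that were lower at T30 and recovered numbered 34, with medians of -1.67 and 0.36. Of these 34, 12 were small nucleolar RNA (snoRNA) genes, whose RNAs mostly lack the poly(A) tail on which the libraries were selected. A further 61 genes were higher at both times and 4 lower at both times without a called change. In 402 genes higher at T30 and 52 lower, the effect was no longer called at T60 but its change was not called either, so for these neither fading nor persistence was shown. At the edge of the size threshold, CMK1 (-1.0066), HST2 (-1.0056) and RTK1 (-1.0044) lay just inside, and RNR4 (-0.9999), JSN1 (-0.9998) and KAR2 (-0.9982) just outside.

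Genes of glucose phosphorylation and carbohydrate storage were among those that crossed from above to below control. HXK1, which encodes the hexokinase isoform that is repressed by glucose, was at 4.25, 8.27 and 17.5 RPKM in control cultures 1, 2 and 3 at T30 and at 45.3, 107 and 112 RPKM in the matching laser-irradiated cultures. At T60 the order was turned round, with 25, 30.7 and 58.9 RPKM in control cells and 10.8, 19.0 and 22.7 RPKM in irradiated cells. The treatments did not overlap at either time. The effect of HXK1 went from 3.10 to -1.05 (SE 0.21 for both), and its change of -4.14 (SE 0.29, adjusted p 5.43e-06 in limma) was the most negative of all 6031 genes. Control cells rose by 1.93 and irradiated cells fell by 2.22 on the log2 scale between the times, both called.

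TSL1, a subunit of the trehalose synthesis complex, rose to 19.1, 53.5 and 77.4 RPKM in irradiated cells at T30 against 5.07, 4.11 and 12.2 in controls, and had dropped to 1.78, 10.8 and 12.4 RPKM at T60 against 7.38, 14.5 and 19.8. In every culture the irradiated value was above its control at T30 and below it at T60. Its change was -3.45 (SE 0.46, adjusted p 0.000459 in limma), which lost the call without the culture term (adjusted p 0.0891). GPH1, glycogen phosphorylase, and GSY2, the main glycogen synthase, behaved in the same manner although they catalyse opposite steps. GPH1 went from 1.33 to -1.35 and GSY2 from 1.08 to -1.15, with changes of -2.68 (adjusted p 0.00181) and -2.23 (adjusted p 0.000907). GPH1 values at T60 were 0.346, 2.48 and 2.66 RPKM in irradiated cells and 2.99, 4.95 and 10.9 RPKM in control cells, without overlap. RGI1, a small protein of respiratory growth, went from 1.61 to -1.45, a change of -3.05 (adjusted p 0.00207).

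HXK1, GPH1, GSY2 and RGI1 were the only 4 genes called higher at T30 and lower at T60, and their changes kept the call in each of the 15 fits that left out 1 library or 1 culture. Without the culture term the changes of GPH1 (adjusted p 0.112) and GSY2 (adjusted p 0.0651) lost the call. Their lower level at T60 was less firm. The T60 call was lost in 4 of those fits for HXK1, 6 for GPH1, 3 for GSY2 and 7 for RGI1, and for all 4 without the culture term. The HXK1 effect at T60 was -0.913 and -0.996 without culture 1 or 3 of Control_Time60, -0.909 without culture 3 of Laser_Time60 and -0.905 without the whole of culture 3.

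**Figure D2:**
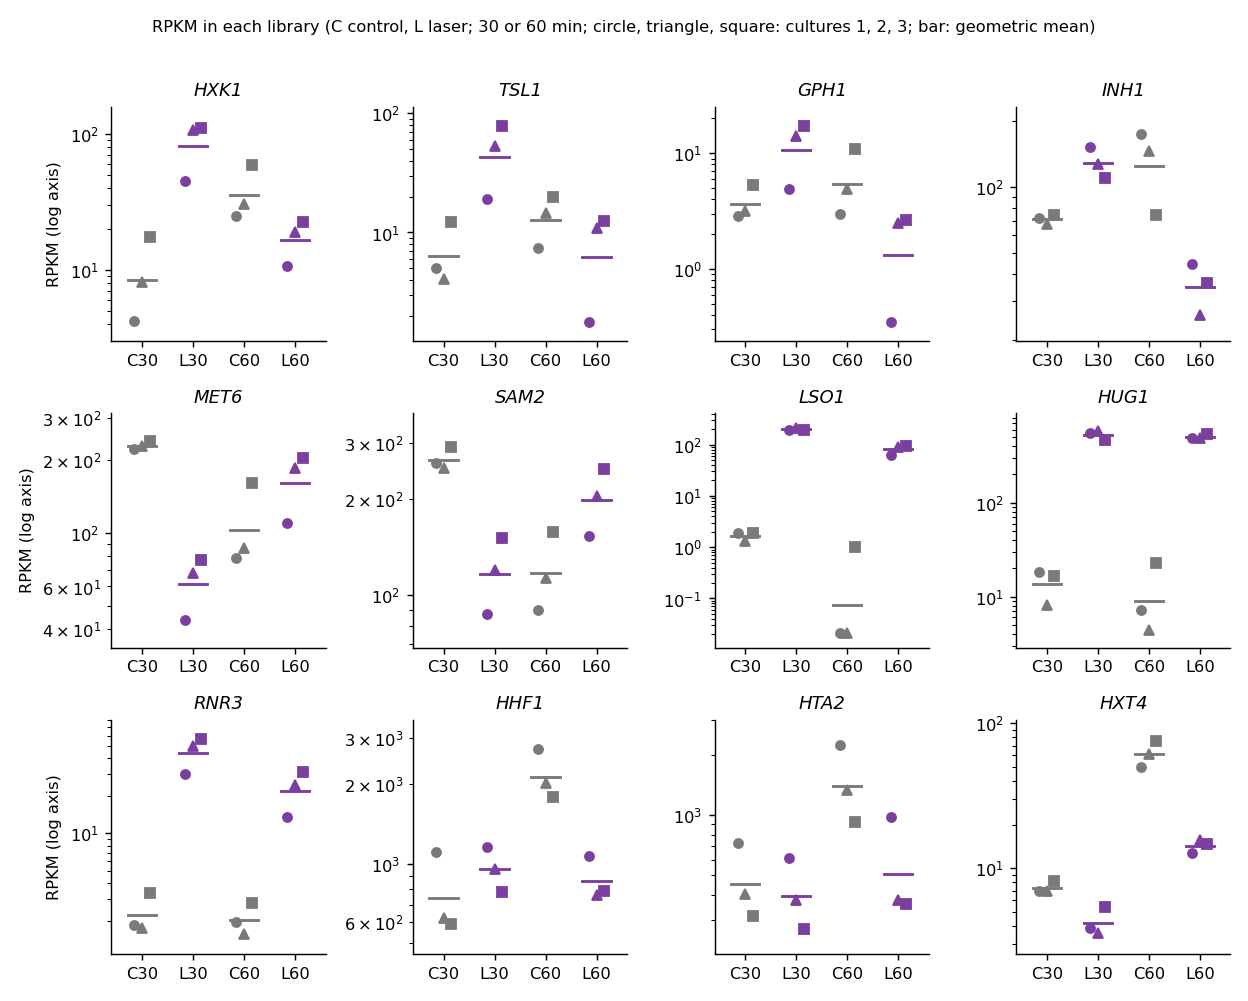
RPKM on a log axis in each of the 12 libraries for 12 genes, with control cells in grey, laser-irradiated cells in purple, cultures 1, 2 and 3 as circle, triangle and square, and bars for geometric means. HXK1, TSL1 and GPH1 are higher in irradiated cells at T30 and lower at T60, MET6 and SAM2 the opposite, LSO1, HUG1 and RNR3 stay higher at both times, and INH1, HHF1 and HTA2 are lower at T60 but not at T30, and HXT4 is slightly lower at T30 and much lower at T60.

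The 12 most negative changes outside tRNA and snoRNA genes also held genes called higher at T30 and not called on either side at T60. GLK1, glucokinase, went from an effect of 3.03 to 0.19 and STF2, a hydrophilin linked to the mitochondrial ATPase inhibitor, from 2.59 to -0.17. RTN2, a reticulon of the endoplasmic reticulum, went from 2.58 to -0.48, and MSC1 from 2.98 to 0.32. The uncharacterised reading frames YNL195C and YOL038C-A went from 3.37 to 0.38 and from 2.55 to -0.76, with changes of -2.99 and -3.31. TMA10, a ribosome-associated stress protein, had one of the largest effects at T30, 4.04, and was still 1.34 higher at T60 (adjusted p 0.000393). GLK1, for example, was at 221, 442 and 478 RPKM in irradiated cells at T30 against 30.9, 33.8 and 76.6 in controls, and at T60 the 2 treatments overlapped at 31.1, 66.7 and 78.6 against 32.6, 41.4 and 81.4 RPKM. All 12 kept the call when any library or culture was left out. Without the culture term 4 of the 12 lost it, namely TSL1, GPH1, RTN2 (adjusted p 0.0651) and MSC1 (adjusted p 0.105).

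In the list of Msn2 and Msn4 targets, 38 of 49 tested genes had a called negative change, against 4.13% of all genes, and none a positive one. The median change was -1.81 against -0.08 for all genes. The median effect of the list was 1.97 at T30 and 0.11 at T60. At T30, 44 of the 49 were called higher, against 11.2% of all genes. At T60, 6 were called higher and 3 lower, against 1.59% and 0.481% of all genes. Irradiated cells fell in 45 of the 49 from T30 to T60, and control cells fell in 8 and rose in 2. These calls were made for 5.87%, 0.73% and 0.862% of all genes. The median change was -1.89, -1.73 and -1.79 in cultures 1, 2 and 3. Without the culture term 10 of the 38 calls were left. HSP12, which encodes a small membrane-protecting protein, is a member that fell in both treatments. It stood at 5504, 5975 and 4035 RPKM in irradiated cells at T30 against 741, 1352 and 1356 in controls, and at 210, 255 and 246 against 193, 148 and 269 RPKM at T60. The log2 change from T30 to T60 was -2.48 in control cells and -4.43 in irradiated cells, and the treatments overlapped at T60. The cytosolic catalase gene CTT1 was a milder member: its effects of 0.65 and -0.54 were not called at either time, and its change of -1.19 had an adjusted p of 0.0452.

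AGGGG stood within the 500 bases upstream of the start codon in 76.0% of the 246 protein-coding genes with a negative change. The share, counted on both strands, was 34.2% in all 5733 genes searched and 30.0% in the 40 with a positive change. In the 83 persisting protein-coding genes, including those whose effect shrank, it was 50.6%. In the 11 protein-coding genes with a called change that were called lower only at T60 it was 72.7%. The element was thus not particular to genes that faded. In the Msn2 and Msn4 list it stood in 91.8%, though that list is defined by this element. The heat shock element GAANNTTC was found in 15.0% of the genes with a negative change and 19.3% of all genes. None of the elements searched contains another, and a match is a run of letters, not a shown binding site.

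Trehalose and glycogen genes as a list had 8 of 19 called negative, against 4.13% of all genes, and 0 of the 8 without the culture term. Their median effect was 1.08 at T30 and 0.04 at T60. Vacuolar proteases and autophagy genes had 9 of 21 called negative, and 2 without the culture term. Among them ATG8, the ubiquitin-like protein of the autophagosome membrane, was at 148, 173 and 162 RPKM in irradiated cells at T30 against 13.7, 20.9 and 16.5 in controls. It was still 46.3, 48.4 and 42.5 against 18.7, 15.4 and 22.1 RPKM at T60, without overlap, and its change was -1.93 (adjusted p 0.000351). PRB1, vacuolar proteinase B, went from 3.12 to 1.3 with a change of -1.82 (adjusted p 0.000376). Both were thus higher at both times while the effect shrank.

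Oxidative stress genes had 13 of 44 called negative (3 without the culture term), 26 called higher at T30 and 5 at T60. The shares of all genes were 4.13%, 11.2% and 1.59%. SRX1, the sulfiredoxin that repairs peroxiredoxins, was at 41.5, 96.7 and 88.8 RPKM in irradiated cells at T30 against 0.702, 5.79 and 7.6 in controls, and at 9.77, 22.3 and 17.6 against 3.33, 5.92 and 6.54 at T60. Its effect shrank from 3.96 to 1.46, a change of -2.50 (adjusted p 0.00112, and 0.161 without the culture term). PRX1, the mitochondrial peroxiredoxin, returned closer to control, from 2.97 to 0.37. Its change of -2.60 had an SE of 0.19 and an adjusted p of 5.43e-06. OYE3, an NADPH oxidoreductase, had a change of -1.39 that narrowly missed the threshold (adjusted p 0.0524) and was called higher at both times.

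Chaperone genes of the heat-shock response had 7 of 30 called negative (1 without the culture term), with 16 called higher at T30 and 1 at T60. Over all genes these calls were made for 4.13%, 11.2% and 1.59%. SSA4, a heat-inducible Hsp70, went from 2.58 to 0.37 (change -2.21, adjusted p 0.000459). HSP82, the inducible Hsp90, went from 2.87 to 1.61 and remained called at T60. HSP82 shares most of its sequence with HSC82, so reads may have been divided between them. HSP42, a small heat-shock protein that collects misfolded proteins, was at 78.0, 208 and 235 RPKM in irradiated cells at T30 and still at 18.3, 36.1 and 50.6 at T60, above all control values of 2.22 to 14.6 RPKM at both times. Its change of -1.58 missed the threshold (adjusted p 0.0533).

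Proteasome genes moved together but by less than the size threshold. All 33 tested subunit genes were called higher at T30 and none at T60, against 11.2% and 1.59% of all genes. The median effect went from 1.45 to 0.65, and 27 of the 33 had a negative change at an adjusted p under 0.05 and any size, against 7.31% of all genes. PRE5, PRE8, PUP1 and PUP3, which encode subunits of the catalytic core, passed the size threshold. PRE5 lost the call in 6 and PUP3 in 4 of the 15 fits with a library or culture left out, and after rescaling their changes were -0.93 and -0.96. PUP1, which kept it, went from 416, 452 and 471 RPKM in irradiated cells at T30, against 155, 172 and 163 in controls, to 205, 221 and 258 against 180, 174 and 182 at T60. The treatments were apart at T30 and still did not overlap at T60, where the effect of 0.34 was not called. RPN4, the activator of these genes, had effects of 0.88 and 0.81 and a change of -0.07, with a 95% interval of -0.58 to 0.43. GGTGGCAAA stood upstream of 81.8% of the 33 subunit genes and 1.71% of all genes. In the ubiquitin and Cdc48 list, 7 of 26 were called negative, against 4.13% of all genes, and 0 of them without the culture term. In that list 9 were still called higher at T60, against 1.59% of all genes. CDC48, the segregase that pulls ubiquitinated proteins apart, went from 1.63 to 0.65, with a change of -0.98 (adjusted p 0.0173) just short of the size threshold.

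**Figure D3:**
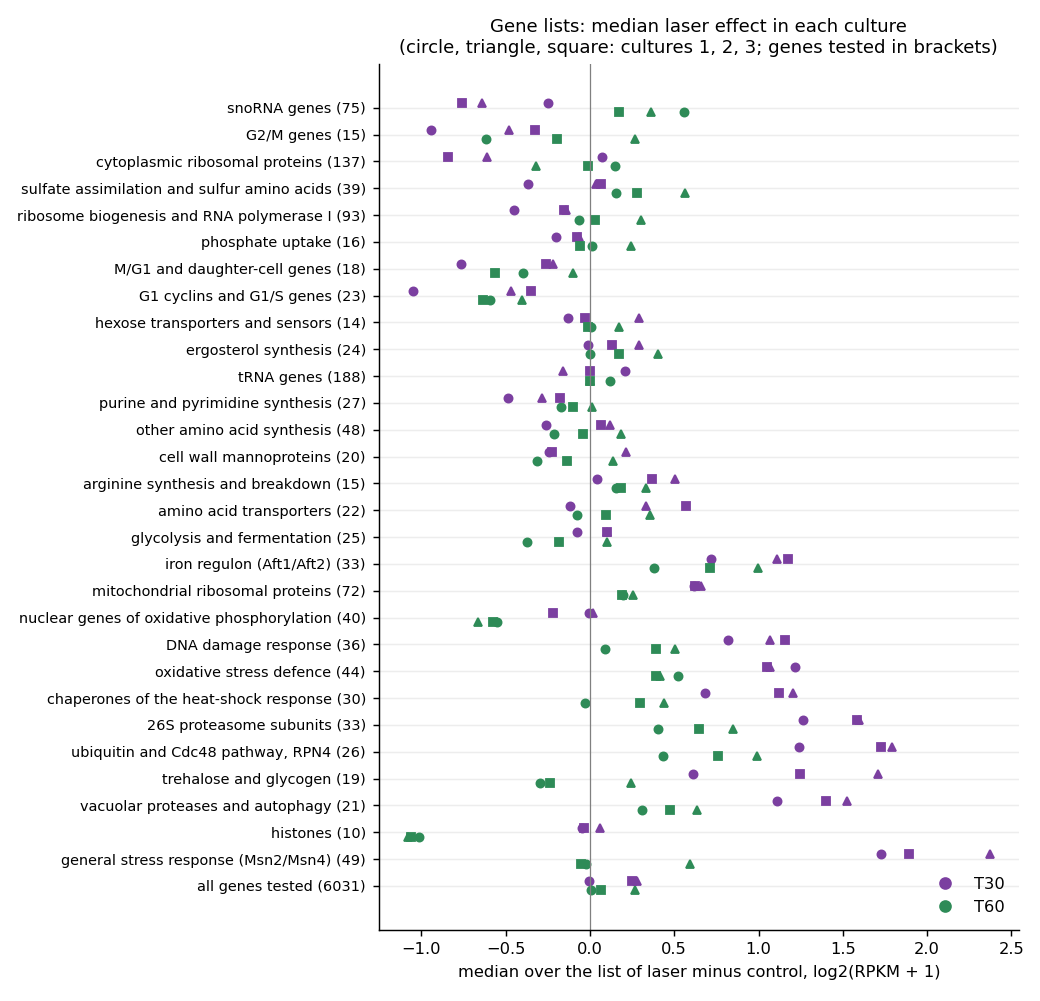
Median laser effect of each gene list in each culture at T30 (purple) and T60 (green), in log2(RPKM + 1), with lists ordered by the median change and all tested genes at the bottom. The stress-response, vacuolar, proteasome and ubiquitin lists shift left from T30 to T60 in all 3 cultures, the histone list moves from near 0 to about -1, and the snoRNA list shifts right.

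Some DNA damage genes faded and others stayed raised, and a difference by role was not tested. Of 36 tested genes, 19 were called higher at T30 and 5 at T60, against 11.2% and 1.59% of all genes. A negative change was called for 6, against 4.13% of all genes. Among these 6 were the 3 subunits of replication protein A (RFA1, RFA2, RFA3), the recombination gene RAD52 and the cohesin acetyltransferase gene ECO1. RFA2 went from 251, 268 and 276 RPKM in irradiated cells against 80.3, 70.6 and 74.3 at T30 to 135, 179 and 167 against 124, 138 and 123 at T60. Its effect fell from 1.81 to 0.31, a change of -1.49 (adjusted p 0.000222), and its T60 effect was not called. RAD52 went from 1.59 to 0.45 (change -1.14, adjusted p 0.0115). Of these 5 genes, RFA2 alone kept the call without the culture term. RAD52 and ECO1 also lost it when some of the single libraries or cultures were left out, in 2 and 10 of the 15 fits.

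The 5 damage genes still called at T60 were HUG1, RNR2, RNR3, RNR4 and the DNA glycosylase gene MAG1, and all but MAG1 encode a subunit or an inhibitor of ribonucleotide reductase, the enzyme that makes deoxynucleotides. HUG1, a small inhibitor of the enzyme, was at 551, 580 and 461 RPKM in irradiated cells at T30 and at 485, 493 and 533 at T60. Control cells had 8.06 to 18.2 RPKM at T30 and 4.39 to 22.9 at T60. The irradiated values overlapped between the times, and 95.2% of the RPKM difference was left. The effect was 5.19 at T30 and 5.63 at T60, a change of 0.44 with a 95% interval of -0.60 to 1.48. RNR3, the damage-inducible large subunit, was at 29.8, 49.7 and 56.2 RPKM in irradiated cells at T30 and 13.6, 24.4 and 30.7 at T60, with all control values between 1.57 and 3.36 RPKM. Its change was -0.89 (95% interval -1.62 to -0.15, adjusted p 0.13). The small subunits RNR2 and RNR4 had effects of 1.37 and 1.27 at T60, and MAG1 1.92. RNR4 counts as persisting only by a narrow margin, since its change had an adjusted p of 0.00691 and fell just short of the size threshold.

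Iron genes were still raised at T60 in several cases. Of 33 tested genes of the iron regulon, 17 were called higher at T30 and 11 at T60, against 11.2% and 1.59% of all genes. A negative change was called for 3 (FIT2, ENB1, CCC2), against 4.13% of all genes. None of the 3 was called without the culture term, and CCC2 lost the call in 11 and ENB1 in 7 of the 15 fits with a library or culture left out. The median effect of the list was 1.0 at T30 and 0.64 at T60. LSO1, a small ribosome-associated protein induced by low iron, was at 190, 212 and 196 RPKM in irradiated cells at T30 and at 63.2, 89.6 and 92.8 at T60. In control cells it was at 1.31 to 1.91 RPKM at T30, and at T60 cultures 1 and 2 held no reads of it and culture 3 held 0.989 RPKM. The fitted effects of 6.22 and 6.0 were the largest of all genes at each time with this pseudocount, and the change was -0.22 (95% interval -0.93 to 0.49). Because control cells were so near 0, the T60 value depended on the pseudocount and ran from 4.01 with a pseudocount of 5 to 8.33 with 0.1. With a pseudocount of 5 it lay below that of HUG1, 5.11. Irradiated cells themselves fell by 1.29 between the times, so 41.2% of the RPKM difference was left although the log2 effect hardly changed.

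FIT2, a cell wall mannoprotein that retains siderophore iron, stood at 592, 674 and 614 RPKM in irradiated cells at T30 against 46.1 to 70.7 in controls, and at 175, 280 and 243 against 39.7 to 47.8 at T60. Its effect went from 3.44 to 2.38, and its change of -1.07 (adjusted p 0.00415) lost the call in 5 of the 15 fits with a library or culture left out, where it ran down to -0.83 without culture 1. It was also lost without the culture term (adjusted p 0.105). HMX1, haem oxygenase, went from 3.53 to 2.19, SIT1, a ferrioxamine transporter, from 2.54 to 2.02, and TIS11, which destabilises mRNAs of iron-using proteins, from 3.25 to 2.01, none with a called change. In SIT1 every irradiated value (34.8 to 190 RPKM) lay above every control value (13.3 to 32.1 RPKM) over both times. SMF3, the vacuolar iron exporter, was nearly level at 1.05 and 1.10. TGCACCC stood upstream of 69.7% of the 33 iron genes, a list built around this regulon, of 16.9% of the 83 persisting protein-coding genes and of 2.29% of all genes. It was found upstream of 5.69% of the genes with a negative change.

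Other persisting genes fell outside these lists. YJL133C-A, of unknown function, went from 3.73 to 3.52 and SPO24, a small protein known from sporulation, from 2.02 to 2.17. YPR015C, a zinc-finger protein, went from 2.16 to 2.51 and GDH3, the glutamate dehydrogenase isoform of poor carbon sources, from 2.12 to 2.25. SPO24 shows that a kept effect did not mean a constant level: irradiated cells fell from 1715, 2526 and 2627 RPKM to 728, 998 and 1038, and control cells fell alongside from 454, 564 and 666 to 181, 196 and 231. YDR034W-B had equal effects at the 2 times, 2.56 and 2.48, but its change ran from -2.30 in culture 1 to 1.56 in culture 2, so that its persistence was not shared by the cultures. YHR138C, a homologue of a vacuolar proteinase inhibitor, shrank from 3.78 to 2.47 and was still called.

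The genes called lower at both times were ADE17, ACO1, YLR042C and the histidine tRNA gene tH[GUG]H. The libraries were selected for poly(A) tails, and the authors surmise that tRNA transcripts were captured through such tails. ACO1, mitochondrial aconitase, was at 42.2, 56.3 and 59.2 RPKM in irradiated cells against 119, 113 and 164 at T30 and at 45.8, 67.1 and 87.2 against 114, 139 and 229 at T60. The treatments did not overlap, and the effects of -1.31 and -1.24 differed by 0.07 (95% interval -0.39 to 0.52). ADE17, which acts late in purine synthesis, rose about equally in both arms, from 27.4 to 50.7 up to 192 to 290 RPKM in control cells and from 9.50 to 17.9 up to 65.5 to 104 RPKM in irradiated cells. Its log2 effect was -1.36 and -1.46 while the RPKM gap widened, and its change ran from -1.0 in culture 3 to 0.76 in culture 1.

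**Figure D4:**
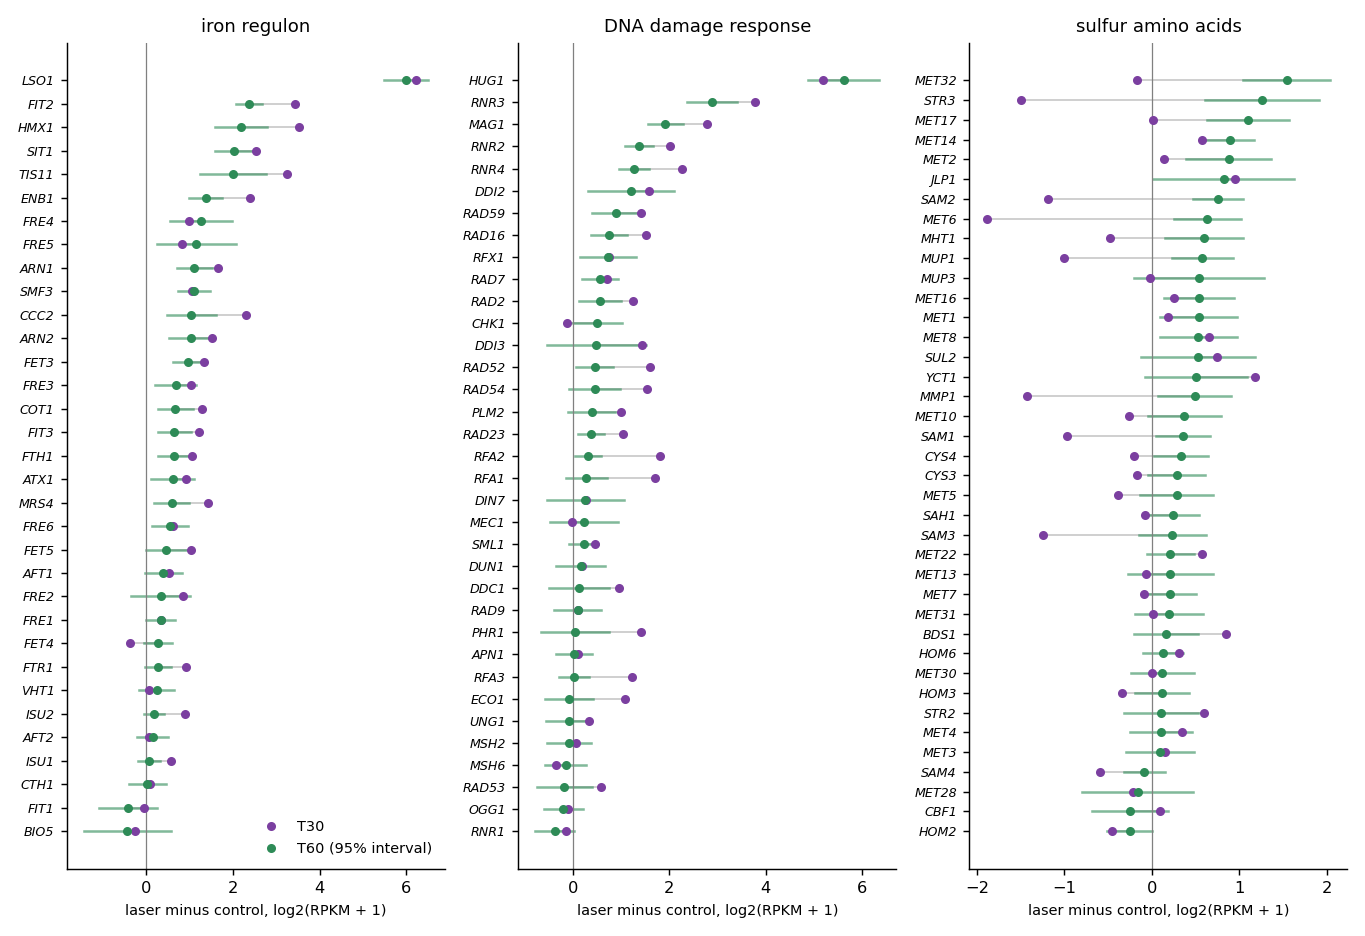
Laser effect at T30 (purple) and at T60 (green, with its 95% interval) of tested genes of the iron, DNA damage and sulfur lists, in log2(RPKM + 1), ordered by the T60 effect. LSO1 and HUG1 stand apart from the rest at both times, the replication protein A genes drop towards 0 at T60, and the sulfur genes MET6, SAM2, MUP1, MMP1 and STR3 cross from below 0 to above it.

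Methionine and S-adenosylmethionine genes ran in the opposite direction. Of 39 tested sulfur genes 10 had a called positive change (4 without the culture term), against 1.11% of all genes, and none a negative one. Those called lower at T30 numbered 6 and those called higher at T60 numbered 3, against 1.51% and 1.59% of all genes. MET6, methionine synthase, was at 43.7, 68.5 and 77.5 RPKM in irradiated cells at T30 against 223, 229 and 239 in controls. At T60 irradiated cells held 110, 186 and 204 RPKM and control cells 79.0, 86.8 and 160. The irradiated value was below its control in all 3 cultures at T30 and above it in all 3 at T60, although the treatments overlapped at T60. Its effect went from -1.89 to 0.63, a change of 2.52 (SE 0.25, adjusted p 4.53e-05). Control cells fell by 1.15 while irradiated cells rose by 1.37, both called.

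SAM2, which makes S-adenosylmethionine, went from -1.19 to 0.76 (change 1.94, adjusted p 3.81e-05), and its close paralogue SAM1 from -0.97 to 0.36 (change 1.33, adjusted p 0.00098). Reads common to both paralogues could have been assigned to either. STR3, a cystathionine lyase, was called on both sides, lower at -1.49 and then higher at 1.26, with 2.28, 7.85 and 6.69 against 15.8 to 16.5 RPKM at T30 and 8.21 to 10.6 against 2.60 to 4.19 RPKM at T60. The change of 2.76 (adjusted p 0.00115) kept the call in all 15 fits with a library or culture left out, but the T60 call was lost in 7 of them and without the culture term (adjusted p 0.137). The transporters of this pathway moved likewise: MUP1 for methionine from -1.0 to 0.58, MMP1 for S-methylmethionine from -1.43 to 0.49 and SAM3 for S-adenosylmethionine from -1.25 to 0.23.

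MET32, an activator of the pathway, and MET17, which incorporates sulfide, were not lower at T30 and were called higher only at T60. MET32 effects were -0.17 and 1.54, and MET17 effects 0.01 and 1.10. In both, control cells fell (by 1.25 and 1.23) while irradiated cells had changes of 0.46 and -0.13, not called. The MET17 change of 1.09 (adjusted p 0.0392) lost the call in 9 of the 15 fits. It was down to 0.73 without culture 1 of Control_Time30. The MET17 call at T60 was lost without the culture term (adjusted p 0.132) and after rescaling, where the effect was 0.987. MET17 was read although the stated genotype lacks a functional copy. The MET32 change lost the call without the culture term (adjusted p 0.0709) and without culture 2 (adjusted p 0.0504). At 15 min, in libraries that the change did not use, 19 of the 39 sulfur genes were called higher in irradiated cells, against 12.7% of all genes, among them MET6 at 1.48, STR3 at 2.0 and MET17 at 3.39. STR3 was thus called higher at 15 min, lower at T30 and higher at T60, and MET6 followed the same order without a call at T60. TCACGTG stood upstream of 56.4% of the sulfur list, of 4 of its 10 genes with a positive change and of 4.59% of all genes. No match lay in the windows of STR3, MMP1, SAM3 and MUP1.

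Among the 12 most positive changes outside tRNA and snoRNA genes, 4 small reading frames, ANB1 and CSN9, a subunit of the COP9 signalosome, lay outside the sulfur list. YOR192C-C had the most positive value of these 12, 3.92, at no more than 11.2 RPKM in any library and with no reads in 4 of the 12, and YCR024C-B went from -1.53 to 0.54. Without the culture term 8 of the 12 most positive changes lost the call, among them YOR192C-C (adjusted p 0.0803), YCR024C-B (adjusted p 0.0817) and MUP1 (adjusted p 0.178). YOR192C-C also lost it without culture 2 (adjusted p 0.0637). The changes of YHR050W-A (2.36), YJL047C-A (1.92) and CSN9 (1.68) lost the call in 11, 6 and 11 of the 15 fits. ANB1, the translation factor eIF5A isoform of low oxygen, went from -1.66 to 0.12 and lost the call without the culture term (adjusted p 0.245). HO, the endonuclease gene transcribed late in G1, was at 14.3, 9.27 and 9.84 RPKM in irradiated cells against 57.2 to 77.1 at T30, and at 25.1 to 28.1 against 44.0 to 71.8 at T60. Its effect shrank from -2.43 to -0.93, a change of 1.5 (adjusted p 0.00521, and 0.0685 without culture 2). Small nucleolar RNAs, which guide modification of ribosomal RNA, had 19 of 75 called positive, against 1.11% of all genes, and none negative. Their median effect was -0.66 at T30 and 0.38 at T60. These RNAs mostly lack the poly(A) tail on which the libraries were selected and were at low values, such as snR52 with no reads in 2 irradiated cultures at T30. Without the culture term 3 of the 19 calls were left. Of 188 tested tRNA genes, 7 were called positive and 3 negative, against 1.11% and 4.13% of all genes. Without the culture term 2 tRNA calls were left in each direction. Cytoplasmic ribosomal protein genes had a median change of 0.40 with 0 of 137 called by limma at an adjusted p under 0.05 of any size, and their T30 median of -0.48 differed between cultures, at 0.07, -0.61 and -0.84. Ribosome biogenesis genes had 0 of 93 called and a median change of 0.30.

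**Figure D5:**
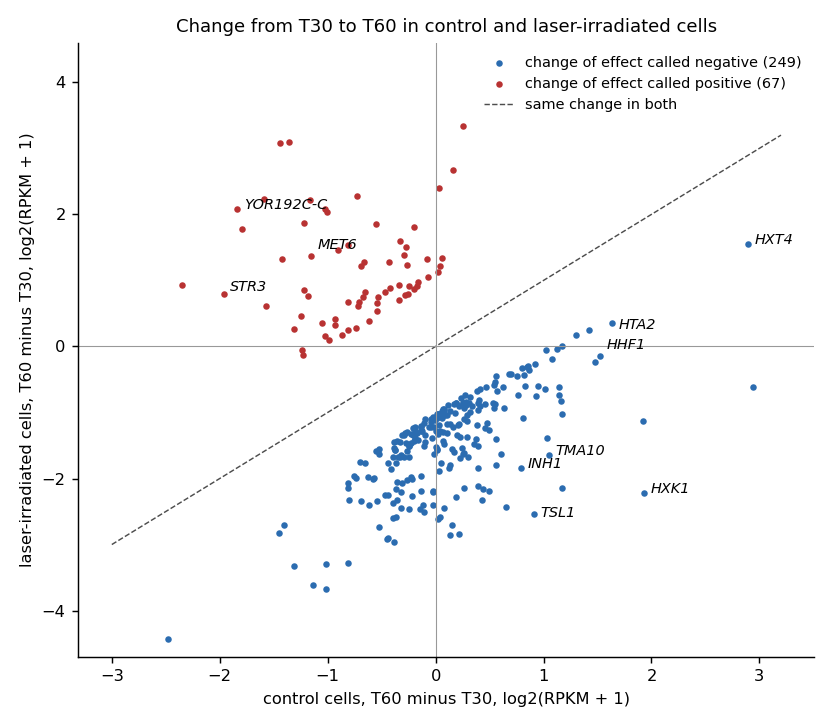
Change from T30 to T60 in control cells (horizontal) and in laser-irradiated cells (vertical), in log2(RPKM + 1), for the 249 genes with a negative (blue) and the 67 with a positive (red) change of the effect, with the dashed line marking equal change. Most blue points lie below 0 on the vertical axis, while HHF1, HTA2 and HXT4 lie to the right, where control cells rose more than irradiated cells.

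Several effects were called only at T60. A gene not called at T30 could still differ from control there, as INH1 and HXT4 did (below). In 12 genes called lower at T60 but not at T30 with a called change, the median effect went from 0.05 to -1.29, and control cells rose in 6 of them. A further 8 genes with a called change were called higher only at T60. The histone genes HTA1, HTA2, HHF1 and HHF2 were 4 of the 12. Of the 10 histone genes 6 had a called negative change, and control cells rose in 9 and irradiated cells in none. Over all genes these calls were made for 4.13%, 0.862% and 1.54%. The median effect of the histone genes went from 0.01 to -0.99. HHF1, a histone H4 gene, rose in control cells from 1110, 625 and 590 RPKM to 2706, 2019 and 1786, and in irradiated cells went from 1158, 955 and 784 RPKM to 1067, 763 and 785. The treatments overlapped at T30 and not at T60. The change was -1.67 (adjusted p 7.98e-05), and the effect at T60 was -1.31. HTB1, a histone H2B gene, is the member whose change was still called without the culture term (adjusted p 0.0467). Histone genes come in near-identical pairs, so reads may have been shared within a pair. Genes of the G1 to S transition, which precedes histone synthesis in the cell cycle, numbered 23. Of these, 6 were called lower at T30 and none at T60, against 1.51% and 0.481% of all genes. Irradiated cells rose in 9 of the 23 from T30 to T60 and control cells in 1, calls made for 1.54% and 0.862% of all genes.

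Late genes named here also included hexose transporter and respiratory genes, while the glycine tRNA gene tG[GCC]O1, at 0.26 and -2.38, was another of the 12. The T60 effect of tG[GCC]O1 was -0.91 with a pseudocount of 5. Its change lost the call without culture 3 (adjusted p 0.0685) and with all 24 libraries in the fit (adjusted p 0.147). HXT4, a hexose transporter of high affinity, rose in control cells from 6.96 to 8.13 RPKM up to 49.7 to 75.6 RPKM and in irradiated cells from 3.58 to 5.40 up to 12.7 to 15.7. Both arms rose, by 2.90 and 1.55, so the effect moved from -0.68 to -2.02, and its change of -1.34 (adjusted p 0.00623) was lost without culture 2 (adjusted p 0.0508) and without culture 3 (adjusted p 0.189). HXT7, nearly identical in sequence to HXT6, rose by 1.3 in control cells and by 0.18, not called, in irradiated cells. INH1, the inhibitor of the mitochondrial ATPase, was at 151, 126 and 110 RPKM in irradiated cells against 67.5 to 74.1 at T30 and at 44.5, 26.1 and 36.3 against 74.6 to 174 at T60. Its effect went from 0.84 to -1.80, a change of -2.64 (adjusted p 0.000179) that was kept in all 15 fits and without the culture term. Among 40 nuclear genes of oxidative phosphorylation, 6 were called lower at T60 and none at T30, against 0.481% and 1.51% of all genes. Of the 40, 2 were called higher at T30. The median effect went from -0.03 to -0.63. A negative change was called for 5, against 4.13% of all genes, and for 0 of them without the culture term. Of the 5, 2 were raised genes that faded and 2 were late genes. CYT1 and QCR10, subunits of complex III, moved from near 0 (0.13 and 0.02) to -1.11 and -1.21.

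The 15 min libraries, which were not used for the change, give another view of these patterns. Of the 191 genes whose raised effect faded after T30, 142 were called higher at 15 min already, with a median of 1.33, against 12.7% of all genes. Of the 61 genes that persisted, 48 were called higher at 15 min, and of the 20 that shrank but remained called, 19. None of the 12 late genes was called lower at 15 min, where 1.02% of all genes were. With so few genes this count does not set them apart from all genes. INH1, HXT4, HHF1 and QCR10 stood at 0.28, 0.25, 0.27 and -0.04 there.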

How the data were processed

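RNA was sequenced by the authors after poly(A) selection (stranded kit, paired reads) and aligned to the S288C reference with SeqMan NGen; whether strand was used in counting is not given in the sources used here. The authors deposited linear RPKM per gene and replicate, with 0.021 in place of no reads. The authors also deposited group means and, for each comparison of their own, a p-value, a t score and a fold change, which were not used. Whole reads were recovered from the RPKM steps and R64 gene lengths (89.6% to 94.2% of low values within 0.08 of a whole read, against 16.0% by chance), giving depth. The Time 30 and Time 60 tables were joined by gene name (2 names had become dates and stayed as deposited), and 6190 genes matched R64.

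log2(RPKM + 1) of the 12 libraries was fitted in limma 3.58.1 (R 4.3.3) with 4 groups, an additive culture term and a variance trend, on genes with at least 1 RPKM in at least 3 libraries. A gene was called at a log2 size of at least 1 where its p, adjusted by Benjamini-Hochberg over all tested genes, was under 0.05. SE and 95% intervals come from that fit. Replicate numbers were taken as cultures because each culture was split into both treatments and sampled repeatedly; deviations of same-numbered libraries correlated at 0.19 to 0.56 in culture 1, -0.16 to 0.07 in culture 2 and 0.32 to 0.48 in culture 3. The script was tested on simulated data. Named genes were the 12 most negative and 12 most positive called changes (tRNA, snoRNA and genes unread in a whole group left to counts), up to 10 persisting genes a direction and 6 late genes with the largest T60 effect, up to 4 genes a list with the smallest p, and genes the study names. CTT1, HSP12, MAG1, RNR2, RNR4, RPN4, PRE8, SAM1, SAM3, SIT1, SMF3, HHF2, HTA1 and snR52 were chosen after their values were seen. The genes, lists and tests were chosen with earlier results of these data known. Motifs were searched as exact letters on both strands in 500 bases upstream of each start codon. Alternatives covered the culture term, pseudocount, filter, scaling, variance trend, all 24 libraries, the size rule, and each library or culture left out. Some results are not reported here.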

Additional observations from a re-analysis of the deposited data

Results flagged for a closer look

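The change of the laser effect between T30 and T60 is itself a test of a difference between 2 time points, and it was called negative for 249 genes and positive for 67. Within these, 5 genes were called on opposite sides of the control at the 2 times: HXK1 with a change of -4.14, RGI1 with -3.05, GPH1 with -2.68, GSY2 with -2.23 and STR3 with 2.76. For all 5 the change was called in each of the 15 fits with a library or culture left out. Without the culture term the changes of GPH1 (adjusted p 0.112) and GSY2 (adjusted p 0.0651) lost the call. With 3 libraries a group, no test for single outlying libraries was made.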

How the results depend on the processing

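No alternative turned the sign of any called change or called T60 effect among the genes named by rule. Alternatives to the culture term, the filter, the variance trend, the size rule and the number of libraries leave the estimate itself unchanged. Its sign could therefore turn only with another pseudocount, with rescaling or with a library or culture left out. Called values also had a log2 size of at least 1 to begin with. Of 95 such genes with a called change, 57 kept the call in all 15 fits with 1 library or culture left out, and 60 lost it without the replicate block (the culture term). The 249 negative and 67 positive calls became 53 and 9 without the block, 441 and 122 at any size, and, for the positive ones, 32 without a filter and 41 without a variance trend. With libraries or cultures left out they ran from 173 to 362 and from 40 to 66, the positive count being 40 without culture 2 and 44 without culture 3 of Control_Time60. At T30 the 678 higher genes became 1528 at any size, and the 91 lower ones 50 with a pseudocount of 5, 138 after rescaling and 460 at any size. At T60 the 96 higher genes became 40 without the block, 57 with a pseudocount of 5 and 337 at any size, and the 29 lower ones 11 and 116 without the block and at any size. In control cells the 52 rising and 44 falling genes became 15 and 12 without the block, 134 and 127 at any size, and 33 rising with a pseudocount of 5. After rescaling, 64.6% of control calls were rises in place of 54.2%. In irradiated cells 93 rising genes became 52 with a pseudocount of 5 and 340 at any size, 354 falling ones 1064 at any size, and the share of rises went from 20.8% to 33.5% after rescaling. List genes called positive (41) became 9 without the block, 22 without a filter, 27 without a variance trend and 27 with all 24 libraries, and those called negative (112) became 25 without the block and 183 at any size. Faded higher genes (215, with those still called or reversed) became 50 without the block and 408 at any size, and faded lower genes (35) became 7 without the block, 19 without a filter, 22 without a variance trend and 94 at any size. Persisting genes (85 in all) became 39 without the block, 51 with a pseudocount of 5 and 346 at any size, and late genes (20) became 2, 11, 13 (without a filter) and 41, and ran from 12 to 20 with a library or culture left out, 12 being without culture 3 of Control_Time60. In fits that leave out 1 library the smaller group was assumed to vary like the others. The cause of these shifts was not tested. With 3 cultures, low RPKM values and 3105500 to 5343000 reads a library, a missed threshold does not show an unchanged effect.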
